A study of Arabidopsis thaliana with 12 samples.

Results

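The circadian clock genes of Arabidopsis thaliana described here are 10 genes of the clock and its output: CCA1, LHY, RVE1 and RVE8, whose transcripts peak around dawn, PRR9, PRR7 and PRR5, which follow one another from morning to afternoon, and TOC1, GI and CCR2, which peak towards evening. They were chosen by name among 21363 loci to which a probe set of the Affymetrix ATH1 array was assigned alone, for PRR9 through the representative identifier of a probe set that also matches another locus. All 10 were found, and where a locus had more than 1 probe set, the one with the highest mean over the arrays stands for it. The arrays came from seedlings grown for 10 days in 16 h of light and 8 h of darkness, at 22 °C by day and 18 °C by night, on a medium with 1% sucrose and without vitamin B6. Leaves and roots were collected separately, and 4 groups of 3 biological replicates were measured: leaves of a pdx1.3 knockout in the Col-0 ecotype, leaves of Col-0 wild type (WT), roots of the pdx1.3 knockout and roots of WT. PDX1.3 encodes an enzyme subunit of vitamin B6 synthesis, and the medium gave no vitamin B6 to either genotype. The sources used here do not give the hour of harvest, the mutant allele or the number of mutant lines. The values therefore give levels at unstated times of a daily cycle, with no phase, period or amplitude, and whether the arrays of a group share 1 time is not known.

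The plant clock is a set of transcription factors that repress and activate one another in sequence over the day. The MYB-like factors CCA1 and LHY are made at dawn and repress evening genes, the PSEUDO-RESPONSE REGULATOR (PRR) proteins repress CCA1 and LHY through the day, and TOC1, itself a PRR protein, does so from evening into the night. RVE8 is a MYB-like factor of the same family that activates evening genes, and RVE1 links the clock to auxin synthesis. GI stabilises the F-box protein ZTL, which targets TOC1 for breakdown, and CCR2 (also called GRP7) is an RNA-binding protein whose transcript is a classic clock output.

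The signal is the MAS5 intensity of a probe set, scaled by the authors so that arrays have the same trimmed mean. It is compared between groups for 1 probe set at a time, never between genes. Differences were tested with limma on log2 of (signal + 16), with p-values adjusted over 22746 probe sets, and calls were made where the adjusted p was under 0.05. The 3 arrays per group limit the precision, and the standard error (SE) is that of the fit over 12 arrays. PDX1.3 averaged 43.1 ± 6.56 in pdx1.3 leaves and 823 ± 201 in WT leaves (SD, n = 3 each), and 97.9 ± 16.9 in pdx1.3 roots and 276 ± 10.5 in WT roots. These levels follow the sample titles, whereas the genotype entry among the sample characteristics reads the opposite for every sample and was not used. Between 64.3 and 72.8% of probe sets were present on each array, and replicates correlated at 0.968 to 0.992 over all probe sets. Summed signals of 5 measured leaf marker genes spanned 24224 to 26619 in pdx1.3 leaves, 26259 to 29769 in WT leaves, 457 to 772 in pdx1.3 roots and 872 to 1225 in WT roots. Those of 6 root marker genes spanned 231 to 305 in pdx1.3 leaves, 205 to 259 in WT leaves, 1498 to 1648 in pdx1.3 roots and 1508 to 2187 in WT roots. The root marker SCR went the other way, with means of 192 in pdx1.3 leaves and 169 in WT leaves. Its means were 147 in pdx1.3 roots and 152 in WT roots, so it made up much of the leaf sums. The other 5 were lower in leaves than in roots in both genotypes. Of these root markers, 4 were absent on all arrays of pdx1.3 leaves and 3 on all arrays of WT leaves. The part of these marker levels in the differences was not tested.

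In leaves, 5 of the 10 clock genes passed the test between the genotypes: CCA1, RVE1, RVE8 and PRR9 were higher in pdx1.3 leaves, and CCR2 was lower. Over all probe sets tested, 7.22% passed in leaves, 4.7% as higher and 2.51% as lower. The 10 genes were chosen with earlier results of these data known, so a share above that of all probe sets may follow from the choice. The 4 genes that were higher peak at dawn or in the morning and the 1 that was lower peaks towards evening. The remaining dawn gene, LHY, was not called, and neither were PRR7 and PRR5. The other evening genes, TOC1 at 0.26 and GI at 0.27, were not called and did not share the direction of CCR2. The median log2 difference was 0.76 over the 4 dawn genes, 0.10 over the 3 PRR genes and 0.26 over the 3 evening genes, against 0.01 over all probe sets. These are bulk samples, so a change in the share of a cell type and a change in transcript per cell cannot be told apart. Nor can a difference of genotype be told from one of harvest hour, which is not given.

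**Figure D1:**
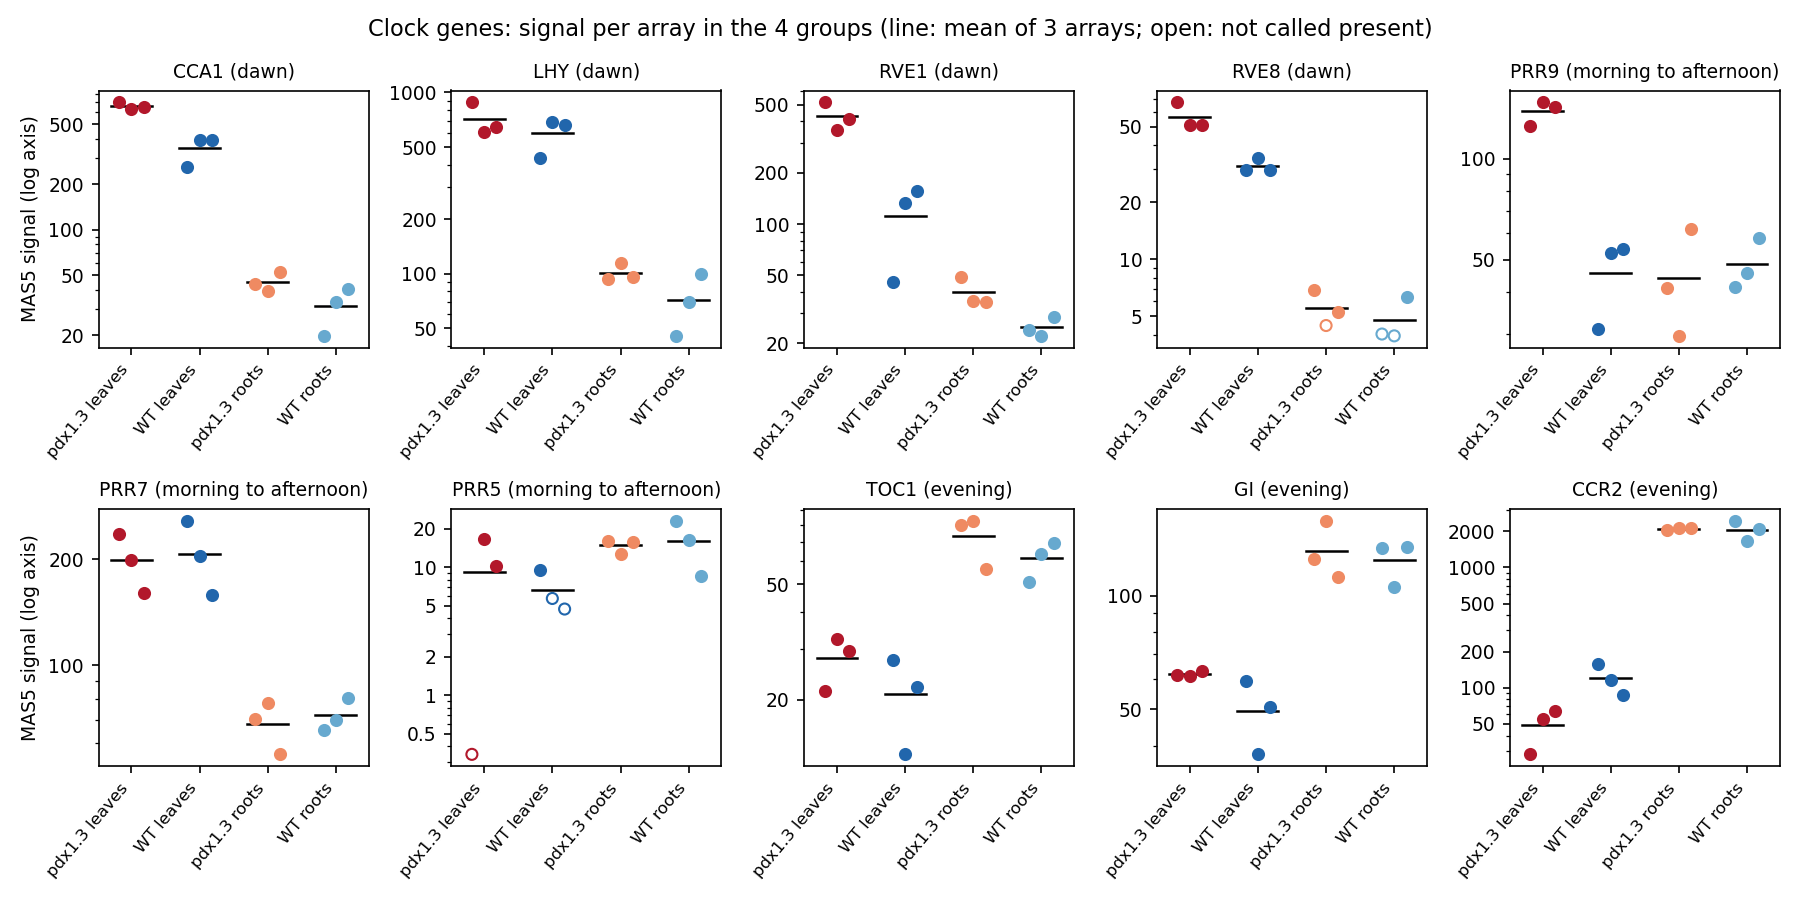
MAS5 signal (log axis, a scale of its own in each panel) of the 10 clock genes on each of the 12 arrays, by group, with a line at the mean of 3 arrays and open circles for arrays on which the gene was not called present. CCA1, RVE1, RVE8 and PRR9 were higher on every pdx1.3 leaf array than on any WT leaf array, and CCR2 lay between 27.9 and 158 in leaves and between 1669.8 and 2448 in roots.

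CCA1 (AT2G46830), the dawn repressor of evening genes, had signals of 701, 630.1 and 647 in pdx1.3 leaves, against 261, 395 and 396 in WT leaves. The mutant arrays lay close together and above all WT arrays, of which the first was lower than the others. The log2 difference was 0.90 (SE 0.19, adjusted p = 0.01237), 1.87-fold higher in pdx1.3 leaves. In roots CCA1 stood at 43.6, 39.3 and 52.7 in the mutant, against 19.8, 33.2 and 40.2 in WT. The root groups overlapped, and their difference of 0.40 (SE 0.19, adjusted p = 0.7618) did not pass the test.

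LHY (AT1G01060), the partner of CCA1, had signals of 884, 605 and 643 in pdx1.3 leaves, against 434, 687 and 662 in WT leaves. In each genotype 1 array, numbered 1 in both, lay apart from its replicates, upwards in the mutant and downwards in WT, and the groups overlapped. The log2 difference in leaves was 0.26 (SE 0.24, adjusted p = 0.6051), with a 95% interval of -0.25 to 0.77. The leaf value of CCA1, 0.90, lies above that interval, although the difference between the 2 genes was not tested. In roots LHY stood at 93.1, 115 and 96.0 in the mutant, against 45.5, 69.9 and 100.2 in WT, again with overlap. Its root difference of 0.46 (SE 0.24, adjusted p = 0.8363) was not called.

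RVE1 (AT5G17300) had the largest difference between the genotypes among the 10 genes in leaves. Its signals were 518, 354 and 414 in pdx1.3 leaves, against 45.5, 133 and 157 in WT leaves. The lowest mutant array was above the highest WT array, and the WT arrays spread widely, with the first far below the others. The log2 difference was 1.91 (SE 0.30, adjusted p = 0.002639), 3.77-fold higher in pdx1.3 leaves. In roots its signals were 48.8, 35.3 and 35.0 in the mutant, against 23.8, 22.1 and 28.4 in WT. RVE1 was the 1 gene of the 10 whose genotypes did not overlap in roots, where 11.1% of all probe sets did not, and its root difference of 0.45 (SE 0.30, adjusted p = 0.9999) was not called.

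RVE8 (AT3G09600), the activator of evening genes, had signals of 67.5, 51.4 and 51.0 in pdx1.3 leaves, against 29.5, 34.2 and 29.5 in WT leaves. The groups did not overlap, and replicates within each lay near one another. The log2 difference was 0.62 (SE 0.12, adjusted p = 0.007337), 1.54-fold higher in pdx1.3 leaves. With a constant of 1 in place of 16 the difference was 0.84 and no longer passed (adjusted p = 0.07901). Another probe set of the same locus gave a leaf difference of 0.39 (adjusted p = 0.2104), so the 2 probe sets differ in their call though not in direction. In roots RVE8 stood at 6.85, 4.46 and 5.27 in the mutant, against 4.02, 3.93 and 6.34 in WT. It was called present on 2 of 3 mutant and 1 of 3 WT root arrays, and the genotypes overlapped.

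PRR9 (AT2G46790), the first of the PRR repressors to appear in the day, had signals of 125, 147 and 142 in pdx1.3 leaves, against 31.0, 52.3 and 54.0 in WT leaves. All mutant arrays lay well above all WT arrays. The log2 difference was 1.34 (SE 0.21, adjusted p = 0.002076), 2.53-fold higher in pdx1.3 leaves. In roots the signals were 41.3, 29.7 and 61.7 in the mutant, against 41.5, 45.8 and 58.2 in WT. These overlapped widely, with a difference of -0.12 (SE 0.21, adjusted p = 0.9999). All 11 probes of this probe set also match AT2G46670, so PRR9 and that locus cannot be told apart here.

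PRR7 (AT5G02810), which follows PRR9 and is also expressed from morning on, had signals of 237, 199 and 161 in pdx1.3 leaves, against 258, 205 and 158 in WT leaves. In roots its signals were 70.4, 78.2 and 55.7 in the mutant, against 65.4, 70.03 and 80.7 in WT. The genotypes overlapped in both organs. The log2 difference was -0.04 (SE 0.18, adjusted p = 0.9438) in leaves, with a 95% interval of -0.44 to 0.35, and -0.07 (adjusted p = 0.9999) in roots.

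PRR5 (AT5G24470), the afternoon member, was near the detection limit in leaves. Its signals were 0.345, 16.8 and 10.3 in pdx1.3 leaves, where it was present on 2 of 3 arrays, against 9.56, 5.72 and 4.73 in WT leaves, where it was present on 1 of 3. In roots it was present on all arrays, at 16.0, 12.8 and 15.8 in the mutant, against 23.2, 16.3 and 8.58 in WT. The genotypes overlapped in both organs, and neither the leaf difference of 0.10 (SE 0.22, adjusted p = 0.8704) nor the root difference of -0.03 (adjusted p = 0.9999) was called.

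TOC1 (AT5G61380), the evening PRR protein, had signals of 21.5, 32.4 and 29.4 in pdx1.3 leaves, against 27.5, 13.0 and 22.2 in WT leaves. In roots it stood at 79.7, 82.6 and 56.5 in the mutant, against 51.0, 63.6 and 69.1 in WT. The genotypes overlapped in both organs, while every root array was above every leaf array. The genotype difference was 0.26 (SE 0.18, adjusted p = 0.4819) in leaves and 0.20 (SE 0.18, adjusted p = 0.9999) in roots.

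GI (AT1G22770), which acts with ZTL and in flowering, had signals of 61.5, 61.0 and 63.0 in pdx1.3 leaves, against 59.4, 37.9 and 50.5 in WT leaves. The groups did not overlap, by a narrow margin, and the log2 difference of 0.27 (SE 0.16, adjusted p = 0.3735) was not called. In roots GI stood at 125, 158 and 112 in the mutant, against 134, 105 and 135 in WT. The root groups overlapped, with a difference of 0.07 (adjusted p = 0.9999).

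CCR2 (AT2G21660), the RNA-binding output of the clock, moved in the other direction in leaves. Its signals were 27.9, 54.9 and 64.4 in pdx1.3 leaves, against 158, 115 and 87.1 in WT leaves. No mutant array reached the lowest WT array. The log2 difference was -1.08 (SE 0.23, adjusted p = 0.01575), 2.11-fold lower in pdx1.3 leaves. In roots the signals were 2034, 2133 and 2141 in the mutant, against 2448, 1669.8 and 2073 in WT. The WT root arrays enclosed those of the mutant, and the difference was 0.04 (SE 0.23, adjusted p = 0.9999).

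**Figure D2:**
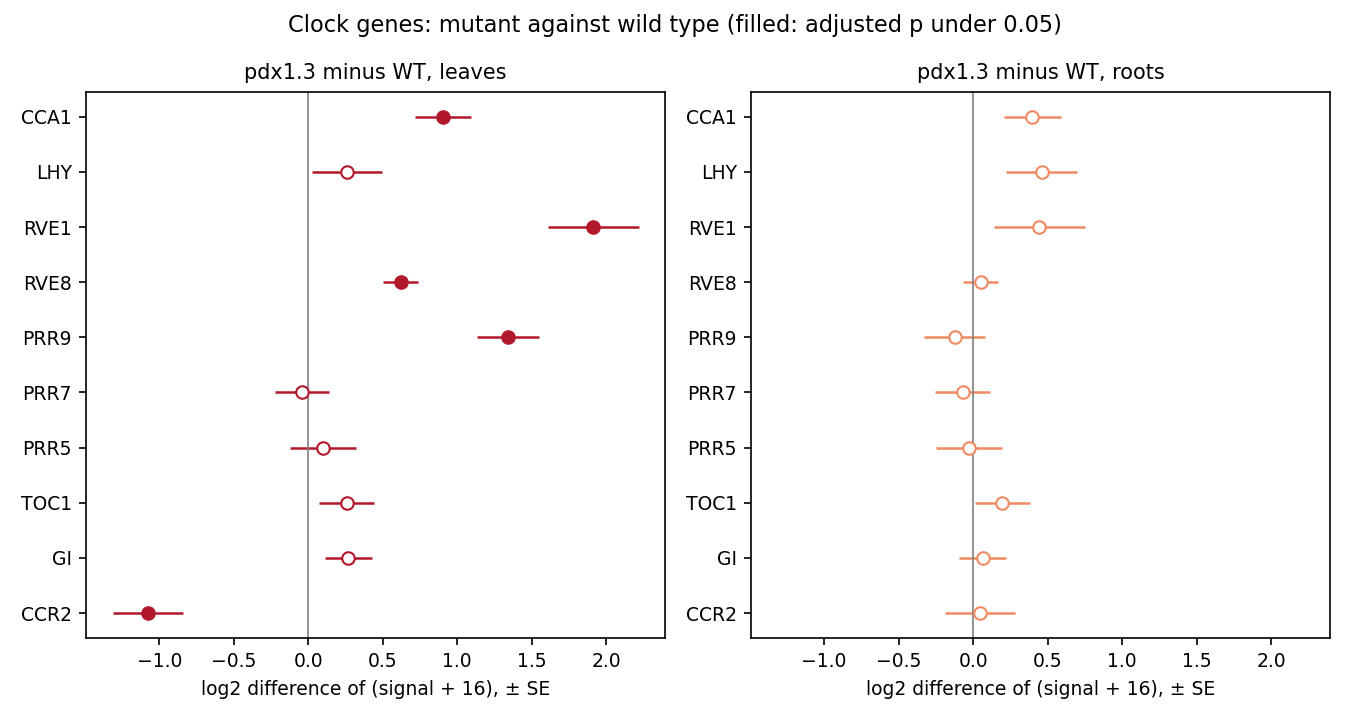
Difference between pdx1.3 and WT in log2 of (signal + 16) for the 10 clock genes in leaves (left) and roots (right), with the SE of the fit as a bar and filled points for an adjusted p under 0.05. In leaves RVE1 (1.91), PRR9 (1.34), CCA1 (0.90) and RVE8 (0.62) lie to the right of 0 and CCR2 (-1.08) to the left, while no point is filled in roots.

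The genotypes did not overlap in leaves for 6 of the 10 genes, namely the 5 called ones and GI, where 24.6% of all probe sets did not overlap. The leaf calls of CCA1, RVE1, RVE8, PRR9 and CCR2 each held in all 12 fits that left out 1 array, with the highest adjusted p at 0.04242 for CCA1 and 0.04624 for CCR2. Leaving out a root array changes only the spread of the fit, not the leaf difference. Only the 6 fits without a leaf array could change that difference. Among the WT leaf arrays, the one numbered 1 was the lowest in CCA1, LHY, RVE1 and PRR9 and the highest in PRR7, PRR5, TOC1, GI and CCR2. Among the pdx1.3 leaf arrays, the one numbered 1 was the highest in CCA1, LHY, RVE1, RVE8 and PRR7 and the lowest in PRR9, PRR5, TOC1 and CCR2. Without both of these arrays, 3 of the 10 genes were called, with differences of 1.31 for RVE1, 0.49 for RVE8 and 1.22 for PRR9. CCA1 then stood at 0.67 (adjusted p = 0.06893), CCR2 at -0.63 (adjusted p = 0.07201) and LHY at -0.11. Where the fit held only the 6 leaf arrays, the spread came from fewer arrays and from leaves alone, without the root arrays. PRR9 alone was then called, and the adjusted p was 0.05419 for CCA1, 0.0535 for RVE1, 0.08501 for RVE8 and 0.1029 for CCR2.

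The actin 3'/5' ratio, which rises as RNA degrades, was 3.12, 5.94 and 8.71 in pdx1.3 leaves, against 8.27, 6.76 and 5.6 in WT leaves. The groups overlapped, and with this ratio as a covariate the differences were 0.90 for CCA1, 1.79 for RVE1, 0.58 for RVE8, 1.40 for PRR9 and -0.93 for CCR2, all still called. The arrays numbered 1 had the lowest ratio in pdx1.3 leaves, 3.12, and the highest in WT leaves, 8.27. Without both of them the calls of CCA1 and CCR2 were lost, and the part of RNA quality in their levels was not tested. In the authors' deposited table, RVE1 had a leaf fold change of 4.16 (the GCOS value) with an increase call in 9 of the 9 array pairs. The authors' deposited table likewise lists 3.05 for PRR9 with 9 increase calls, 1.85 for CCA1 with 9, 1.81 for RVE8 with 8, and -2.37 for CCR2 with 7 decrease calls. The unadjusted p-values in the authors' deposited table are 0.0549 for RVE1, 0.0184 for PRR9, 0.0369 for CCA1, 0.0101 for RVE8 and 0.0472 for CCR2.

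In roots, none of the 10 genes was called by limma between the genotypes, 0 had an unadjusted limma p under 0.05, and 0.809% of all probe sets were called. The 4 dawn genes had values from 0.05 to 0.46, with a median of 0.42, the 3 PRR genes from -0.12 to -0.03, and the 3 evening genes from 0.04 to 0.20. The smallest unadjusted limma p-values were 0.0557 for CCA1 and 0.07501 for LHY. For RVE1 in roots, the authors' deposited table lists a fold change of 1.45 (the GCOS value), with 5 increase and 0 decrease calls. CCA1 and LHY also have 5 increase and 0 decrease calls there. The unadjusted root p-values in the authors' deposited table are 0.0301 for RVE1, 0.182 for CCA1 and 0.225 for LHY. Among the 10 genes, only that of RVE1 is under 0.05. The 95% intervals of CCA1 (-0.01 to 0.81), LHY (-0.05 to 0.97) and RVE1 (-0.21 to 1.11) reach well above 0. Those of CCA1 and RVE1 ended below the leaf value of the same gene, 0.90 and 1.91, and that of LHY holds its leaf value of 0.26. The leaf values have errors of their own, so this is no test of a difference between the organs. These intervals use 1 variance per gene shared by leaf and root arrays, so they do not give the root spread alone. The RVE1 signal was 429 ± 83.0 in pdx1.3 leaves, 112 ± 58.8 in WT leaves, 39.7 ± 7.90 in pdx1.3 roots and 24.7 ± 3.25 in WT roots (SD, n = 3 each). For PRR9 the root interval, -0.57 to 0.32, ended below the leaf interval of 0.89 to 1.79.

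Whether the genotype difference itself differed between leaves and roots was tested as an interaction. PRR9 was called, at 1.47 on the log2 scale (SE 0.29, adjusted p = 0.02545), as were 1.87% of all probe sets. RVE1 had the same value, 1.47, with a larger error (SE 0.43, adjusted p = 0.121), RVE8 stood at 0.57 (SE 0.17, adjusted p = 0.1222) and CCR2 at -1.12 (SE 0.33, adjusted p = 0.1246), none of them called. CCA1 reached 0.51 (SE 0.27, adjusted p = 0.4658), and the other 5 genes lay between -0.20 and 0.20. The PRR9 call was lost in 6 of 12 fits that left out 1 array, namely without pdx1.3 leaves 2 or 3, pdx1.3 roots 1 or 2, or WT roots 2 or 3. Its value in those fits stayed between 1.28 and 1.49, with adjusted p up to 0.07243. With a constant of 64, RVE1 (adjusted p = 0.04313) and RVE8 (adjusted p = 0.04953) also passed, and with the actin ratio as a covariate CCR2 did (adjusted p = 0.04895).

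Leaves and roots differed in most of the 10 genes, in a direction that went with the time of peak. In the mutant, 9 of 10 passed the test of leaves against roots, where 54.7% of all probe sets did (22.2% as higher in leaves and 32.4% as lower): the 4 dawn genes, PRR9 and PRR7 were higher in leaves, and the 3 evening genes were lower. In WT, 8 of 10 passed, where 52.5% of all probe sets did (20.9% as higher and 31.7% as lower): the 4 dawn genes and PRR7 were higher in leaves, and the 3 evening genes lower. The median over the dawn genes was 2.80 in the mutant and 2.17 in WT, and that over the evening genes -1.02 in the mutant and -1.11 in WT, against -0.04 and -0.05 over all probe sets. Leaves and roots hold different cell types, and whether the genes differ within 1 cell type was not tested. The hour of harvest is not given, so a difference of organ and one of hour cannot be told apart.

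Among the dawn genes, CCA1 was 11.1-fold higher in leaves than in roots in the mutant (log2 3.47, SE 0.19, adjusted p = 5.354e-09) and 7.79-fold higher in WT (log2 2.96, SE 0.19, adjusted p = 2.669e-08). LHY was 6.13-fold higher in leaves than in roots in the mutant (log2 2.62, adjusted p = 7.204e-07) and 7.04-fold higher in WT (log2 2.82, adjusted p = 3.895e-07). RVE1 was 7.95-fold higher in mutant leaves than in mutant roots (log2 2.99, SE 0.30, adjusted p = 2.228e-06) and 2.87-fold higher in WT leaves than in WT roots (log2 1.52, SE 0.30, adjusted p = 0.0008928). RVE8 had 1.75 in the mutant and 1.18 in WT on the log2 scale, and its root signals, partly not called present, make these values depend on the constant of 16. All leaf arrays of these 4 genes lay above all root arrays of the same genotype.

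Among the PRR genes, PRR7 was higher in leaves to a like degree in the mutant (log2 1.35, SE 0.18, adjusted p = 3.19e-05) and in WT (log2 1.32, SE 0.18, adjusted p = 4.255e-05). PRR9 was higher in leaves in the mutant (log2 1.39, SE 0.21, adjusted p = 6.938e-05), whereas its WT organs overlapped at a difference of -0.08 (SE 0.21, adjusted p = 0.7909). That WT value turned to 0.07 after quantile normalization and to 0.09 after each array was centred on its median, so it has no settled direction. PRR5 was not called in either genotype, at -0.35 (adjusted p = 0.2068) in the mutant and -0.48 (adjusted p = 0.08945) in WT. Its WT value passed with the actin ratio as a covariate (-0.58, adjusted p = 0.04628), without both leaf arrays numbered 1 (-0.57, adjusted p = 0.01711), without pdx1.3 leaves 1 (adjusted p = 0.02554) and without WT roots 3 (-0.66, adjusted p = 0.03534). Its mutant value passed without pdx1.3 leaves 2 (-0.57, adjusted p = 0.04202).

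Among the evening genes, CCR2 differed most between the organs, 33.6-fold lower in leaves than in roots in the mutant (log2 -5.07, SE 0.23, adjusted p = 1.16e-09) and 15.5-fold lower in WT (log2 -3.95, SE 0.23, adjusted p = 1.357e-08). TOC1 was 2.02-fold lower in leaves in the mutant (log2 -1.02, SE 0.18, adjusted p = 0.0003823) and 2.11-fold lower in WT (log2 -1.08, SE 0.18, adjusted p = 0.0002602). GI was 1.88-fold lower in leaves in the mutant (log2 -0.91, SE 0.16, adjusted p = 0.0002573) and 2.16-fold lower in WT (log2 -1.11, SE 0.16, adjusted p = 5.187e-05). Over the 10 genes, the organs did not overlap for 9 in the mutant and 8 in WT, where 60.5% and 59.2% of all probe sets did not overlap.

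**Figure D3:**
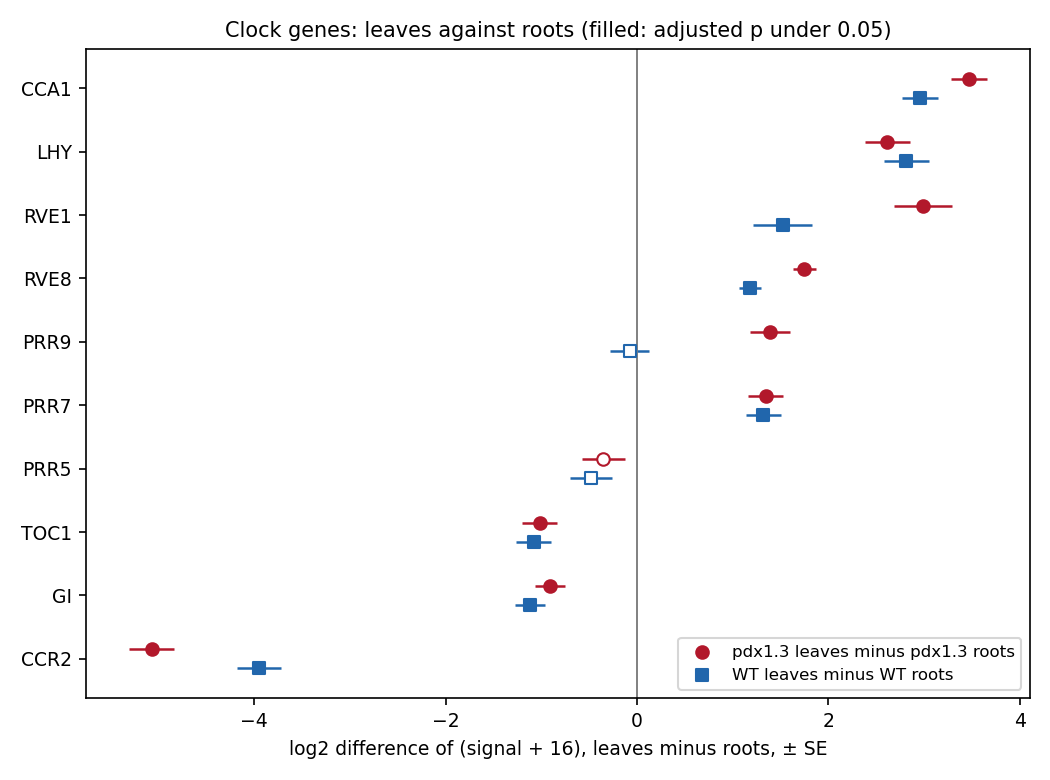
Difference between leaves and roots in log2 of (signal + 16) for the 10 clock genes, in the mutant (red circles) and in WT (blue squares), with the SE of the fit and filled points for an adjusted p under 0.05. Dawn genes lie to the right of 0 in both genotypes and evening genes to the left, CCR2 farthest at -5.07 in the mutant and -3.95 in WT, and PRR9 is filled in the mutant but open in WT.

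Put in order over the 4 groups, the mean signals of CCA1, LHY, RVE1 and RVE8 ran from pdx1.3 leaves through WT leaves and pdx1.3 roots down to WT roots. The leaf genotypes did not overlap for CCA1, RVE1 and RVE8 but did for LHY, and the root genotypes overlapped for all but RVE1. RVE1 was also the 1 dawn gene whose pdx1.3 roots overlapped WT leaves, since the WT leaf array at 45.5 fell below the pdx1.3 root array at 48.8. PRR9 was highest in pdx1.3 leaves, and its other 3 groups overlapped. TOC1 and GI were highest in roots and lowest in WT leaves, with the root genotypes overlapping for both and the leaf genotypes for TOC1. CCR2 was highest in roots, again with overlap between the genotypes, then in WT leaves, and lowest in pdx1.3 leaves.

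Around the 10 genes, 44 further clock genes were followed as 4 lists, of which 40 had a probe set of their own. In leaves 12 of the 40 were called, 10 higher and 2 lower in pdx1.3, against 7.22% of all probe sets. These lists too were chosen with earlier results of these data known, so their shares called may follow from the choice. Without both leaf arrays numbered 1, 7 were called, all higher, and with only the 6 leaf arrays 3 were. In roots limma called 0 of 40, and 1 had an unadjusted p under 0.05.

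The list of RVE and LNK genes, relatives of RVE8 and the coactivators that bind these factors, had 5 of 9 measured members called in leaves, all higher in the mutant, with a median log2 difference of 0.60. LNK1 had signals of 596, 431 and 479 in pdx1.3 leaves, against 166, 290.2 and 279.7 in WT leaves. Its groups did not overlap, and the difference was 1.01 (SE 0.20, adjusted p = 0.009257). RVE3 had signals of 64.8, 61.4 and 52.0 in pdx1.3 leaves, against 7.00, 16.9 and 21.5 in WT leaves. The WT arrays of RVE3 lay far below those of the mutant, and the difference was 1.303 (SE 0.16, adjusted p = 0.0004798). RVE2 rose by 0.82 (adjusted p = 0.01279), RVE5 by 0.63 (adjusted p = 0.0282) and RVE6 by 0.60 (adjusted p = 0.04719). These last 3 lost their calls in some fits without 1 array: RVE2 was called in 10 of 12, RVE5 in 8 and RVE6 in 1. For RVE2 and RVE5, every such fit that lost the call was one without a leaf array.

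Of these genes, RVE2 and RVE3 were also called for the difference between organs. RVE2 had signals of 33.4, 56.4 and 52.5 in pdx1.3 leaves and 17.8, 18.5 and 21.8 in WT leaves, but 24.1, 20.8 and 33.9 in pdx1.3 roots and 50.7, 35.3 and 41.2 in WT roots. The mutant was above WT on all leaf arrays and below it on all root arrays. Its interaction was 1.295 (SE 0.25, adjusted p = 0.02044), although its root difference of -0.47 was not called (adjusted p = 0.4627). RVE3, at 1.27 (SE 0.22, adjusted p = 0.0146), was called absent on 2 of 3 root arrays of each genotype.

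In the list of the evening complex, F-box proteins and PRR3, 1 of 5 measured members was called. This was ZTL, the photoreceptor F-box protein that GI stabilises, at 0.65 (SE 0.16, adjusted p = 0.03123), called in 8 of 12 fits without 1 array. The ZTL call was lost without pdx1.3 leaves 1, WT leaves 2 or 3, or WT roots 2. ELF3 and ELF4, subunits of the evening complex, had 0.10 and 0.15 and were not called. ELF4 was absent on all leaf arrays, so its value is not told from background. LUX, BOA and FKF1 had no probe set of their own. Of 13 modulators of the clock, such as CHE, TIC and LWD1, 0 were called by limma in leaves and 2 had an unadjusted p under 0.05. The values of the modulators ran from -0.48 to 0.31, with a median of -0.10.

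Among 13 clock outputs, 4 were called higher in leaves and 2 lower, with a median of 0.06. The CDF genes, repressors of flowering that GI and FKF1 remove in the afternoon, gave 3 of the 4 higher ones: CDF1 at 1.38 (SE 0.25, adjusted p = 0.006094), CDF2 at 0.96 (SE 0.13, adjusted p = 0.001131) and CDF3 at 0.81 (SE 0.14, adjusted p = 0.004454). The fourth CDF gene measured, CDF5, had -0.21 (SE 0.11, adjusted p = 0.3207) and was not called. CDF1 had signals of 256, 269 and 251 in pdx1.3 leaves, against 46.9, 115 and 127 in WT leaves. Its mutant arrays agreed closely while the WT array numbered 1 was again the lowest. PIF4, a bHLH factor of growth, was higher by 0.76 (SE 0.16, adjusted p = 0.01069). GRP8, the closest relative of CCR2 and likewise an RNA-binding protein, had signals of 281, 350.1 and 407 in pdx1.3 leaves, against 680.0, 566 and 573 in WT leaves. GRP8 thus lay lower on all mutant arrays, with a difference of -0.79 (SE 0.16, adjusted p = 0.01115). COR27 passed the test as lower (adjusted p = 0.01871), but it was absent on all 12 arrays, at 0.398 to 1.504 in pdx1.3 leaves and 3.38 to 5.62 in WT leaves, and is not told from background. CO and FT, which promote flowering, had -0.05 and 0.06 and were not called. Both were absent on all leaf arrays, so these values too are not told from background.

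**Figure D4:**
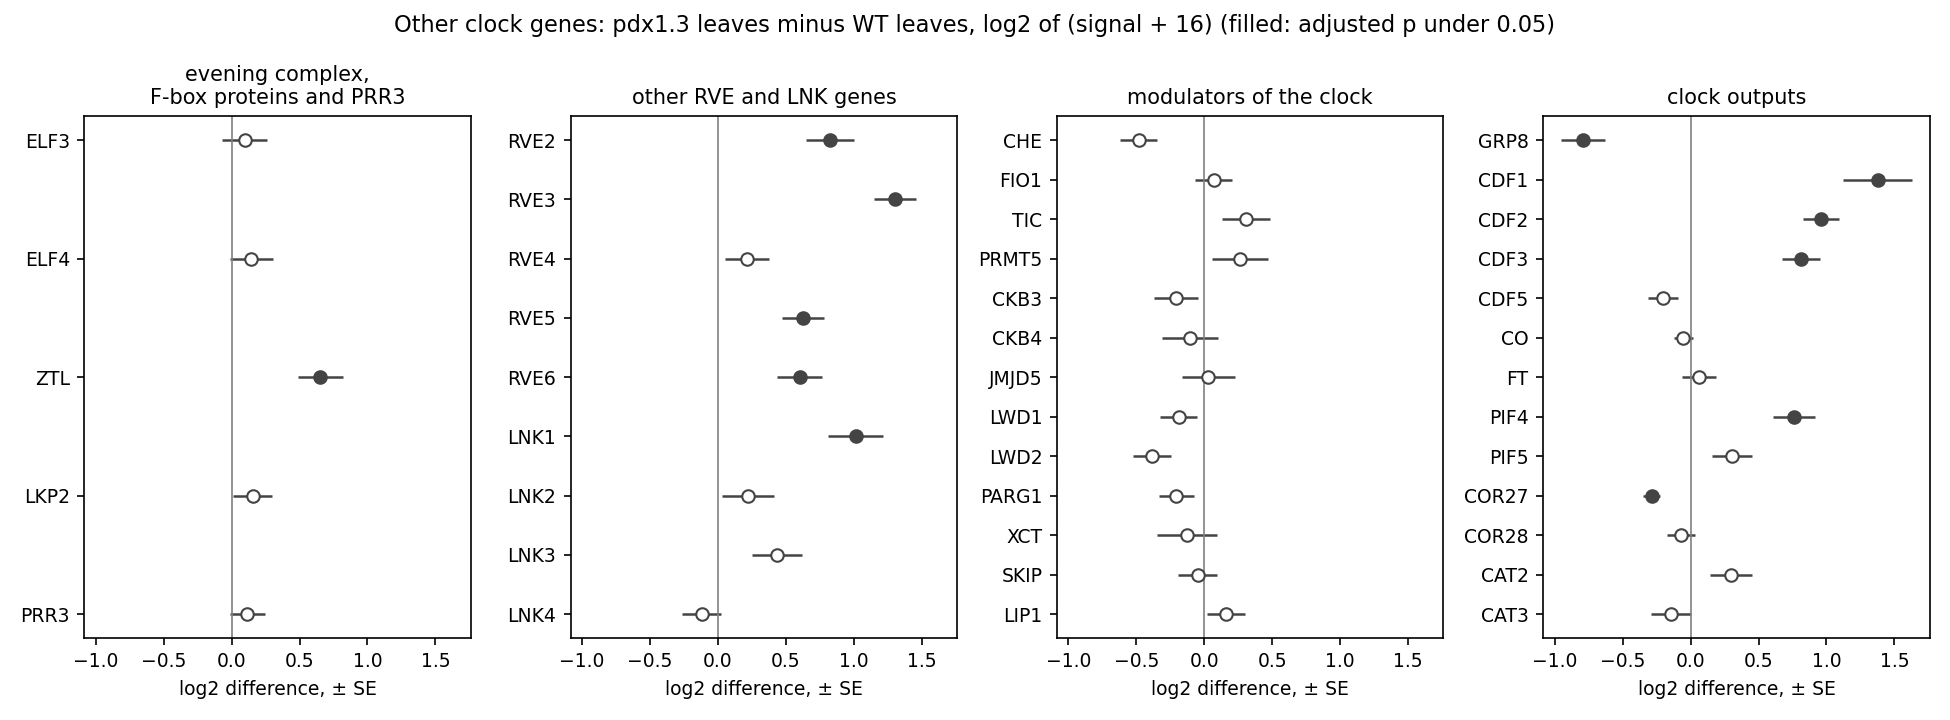
Difference between pdx1.3 leaves and WT leaves in log2 of (signal + 16) for 40 further clock genes in 4 lists, with the SE of the fit and filled points for an adjusted p under 0.05. Filled points to the right of 0 lie mostly among the RVE and LNK genes (5 of 9) and the CDF genes (3 of 4, with CDF5 open at -0.21), and none of the 13 modulators is filled.

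For 3 of the genes, 1 of each time of day, the probe sets most like them were sought over the 12 arrays, by Pearson correlation of log2 values after the mean of each organ was removed, among 15627 loci. Those most like CCA1 were AT1G79510, AT2G16365 and GTR1, each at 0.96, which were higher in pdx1.3 leaves by 0.58, 0.76 and 1.12. Those most like PRR9 were AT2G40460, AT3G27350 and MYB34, each at 0.97, with leaf differences of 1.49, 1.10 and 1.21. All 6 were called in leaves, where 7.22% of all probe sets were, and none in roots, where 0.809% were. They were picked for likeness to genes called in leaves alone, so this count follows largely from the choice. Those most like TOC1 were AT4G23050 at 0.93, and AT1G75140 and CHR18 at 0.91, none of them called in leaves. The 12 points share their arrays and include the genotype difference, so these values describe likeness on these arrays alone.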

How the data were processed

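RNA was measured on 12 Affymetrix ATH1 arrays, 3 per group, from 500 ng of total RNA, per the labels' protocols. Groups come from the sample titles. Per the file headers and the submitters' processing notes, the authors used MAS5 and GCOS to make 1 signal intensity and 1 detection call for each probe set. The sources used here give no versions of either. The deposited intensities are linear and scaled per array. Also deposited by the authors were a fold change with its sign (a ratio between the genotypes), counts of increase and decrease calls over 9 array pairs, and an unadjusted p-value. A quality score block deposited by the authors gives 3'/5' ratios, background and percent present.

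Of 22810 probe sets, 64 controls were left out. Of the others, 21526 name 1 locus, 1215 several and 5 none. A locus was taken from the leading identifier of each transcript assignment, and for PRR9 from the representative identifier. Symbols come from a RefSeq gene table, which lists 21098 of 21363 loci. The deposited intensities, plus 16, were put on the log2 scale with no further normalization, and limma 3.58.1 in R 4.3.3 fitted 4 group means with a variance trend. The constant understates differences of dim genes. Benjamini-Hochberg adjustment ran over 22746 probe sets. Each alternative changed 1 choice: quantile normalization, centring, constants of 1 and 64, a filter on detection, the other deposited signal table, the arrays fitted, the variance model, a replicate block, the actin ratio, a 2-fold threshold, all probe sets of a locus, and arrays left out. The fit was tested on simulated data.

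The members and lists were chosen with earlier results of these data known. Named genes were the 10 genes, every listed clock gene called in leaves, in roots or for the interaction, the 3 loci most like each of CCA1, PRR9 and TOC1 (present on at least 6 arrays) and PDX1.3. CDF5, ELF3, ELF4, CO, FT and the modulators named as examples fall outside that rule and were chosen after their values were seen. Sequences and coordinates were not used here.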

Additional observations from a re-analysis of the deposited data

Results flagged for a closer look

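The genotype difference of PRR9 differed between the organs by 1.47 on the log2 scale (leaves minus roots, limma interaction, adjusted p = 0.02545). It was higher on 3 of 3 mutant leaf arrays, and its root genotypes overlapped. The PRR9 call held in 6 of 12 fits without 1 array. For RVE2 the same test gave 1.295 (adjusted p = 0.02044), with the mutant above WT on all leaf arrays and below it on all root arrays. The RVE2 call held in 8 of 12 fits without 1 array. For RVE3 it gave 1.27 (adjusted p = 0.0146), held in 11 of 12 such fits, and rests on root signals mostly called absent. In groups of 3 arrays no single array was tested as an outlier.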

How the results depend on the processing

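Of 1240 recomputed values of the 10 genes, 1184 kept their direction and side of the threshold, 16 lost a call, 8 gained one and 32 turned sign, none of which had been called. Part of these values could barely change. Among the 10 genes, using all probe sets of a locus altered the signal of RVE8 alone. Leaving out an array of a group not compared left the difference as it was. Members called in leaves numbered 5, against 1 with only the 6 arrays compared, 3 at 2-fold and 3 without both leaf arrays numbered 1, and 5 in every fit without 1 array. Further clock genes called in leaves numbered 12, against 3, 3 and 7 under the same settings, and 8 to 12 without 1 array. For the interaction 1 member was called, against 3 with a constant of 64, 2 with the actin ratio and 0 to 1 without 1 array. Of the further genes 2 were, against 1 with a constant of 1, 5 with one of 64, 4 with the detection filter and 1 to 3 without 1 array. At 2-fold, 20 further genes were called between the organs in the mutant, against 32, and 17 in WT, against 28. Signs turned in leaves for LHY (-0.11 without both arrays numbered 1) and PRR5 (-0.19 with a constant of 1), in roots for PRR5 (0.043 with the actin ratio), for the interaction of PRR7 (-0.019 after centring), PRR5 (-0.19 with a constant of 1) and TOC1 (-0.0115 with a constant of 64), and between WT organs for PRR9 (0.066, 0.091 and 0.11 after quantile normalization, centring and without both arrays numbered 1). Fits without 1 array spanned, in leaves, -0.21 to 0.12 for PRR7 and -0.12 to 0.38 for PRR5. In roots they spanned -0.33 to 0.058 for PRR9, -0.16 to 0.039 for PRR7, -0.21 to 0.13 for PRR5, -0.059 to 0.16 for GI and -0.10 to 0.17 for CCR2. For the interaction they spanned -0.43 to 0.034 for LHY, -0.14 to 0.19 for PRR7, -0.093 to 0.41 for PRR5 and -0.10 to 0.19 for TOC1, and for PRR9 between WT organs -0.18 to 0.11. The cause was not tested.

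Over all probe sets, 1642 were called in leaves, against 516 with only 6 arrays, 480 at 2-fold and 1051 without pdx1.3 leaves 2. In roots 184 were, against 83 with a constant of 1, 61 with 6 arrays, 100 at 2-fold and 75 to 384 without 1 array. For the interaction 425 were, against 248 with a constant of 1 and 137 to 554 without 1 array. Between organs 12437 were called in the mutant, against 6430 at 2-fold, and 11953 in WT, against 5808. Same-numbered arrays of the genotypes deviated with correlations of -0.09 to -0.01 in leaves and -0.21 to -0.05 in roots, and no array was most like its own number in the other genotype, so the numbers do not pair the genotypes. Between leaves and roots the correlations of same-numbered arrays ran from -0.17 to 0.35 in the mutant and from -0.10 to -0.07 in WT. The main organ tests treated leaf and root arrays as unpaired. With the replicate number as a block, 5 members and 10 further genes were called in leaves and 0 in roots. Between the organs, 9 members were then called in the mutant and 8 in WT.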
